A study of Mus musculus with 8 samples.

Results

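The mouse array used here carries probes for long intergenic non-coding RNAs (lincRNAs) that have no transcript accession and are named only by a stretch of the mm9 genome and a strand, F or R. Every probe with such a name that is not a control was taken, which gave 16181 probes of the 55681 on the array, on 4607 interval strands of 3540 intervals. An interval strand is one interval read on one strand, and 1067 intervals had probes on both. A probe was kept when the scanner software marked its signal as well above background on 4 arrays or more. This kept 7462 probes (46.1%, against 67.3% of the other probes) on 3389 interval strands of 2680 intervals. By interval strand, 73.6% were kept, where the share over all features of the array was 67.8%. RNA came from the ventricles of male C57BL\6 mice 24 h after surgery. In 4 mice the anterior interventricular artery was permanently tied to give myocardial infarction (MI mice), and 4 sham-operated mice had the same operation without the ligation. Each mouse had 1 array in 1 colour (Cy3), no age was given, and whole ventricles were used, so that infarcted and surviving muscle were measured as 1 sample.

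LincRNAs are transcribed between protein-coding genes and are often capped, spliced and polyadenylated like messenger RNA, but hold no long reading frame. Known members build nuclear bodies, recruit chromatin complexes, carry microRNAs or small nucleolar RNAs in their transcripts, or give rise to short peptides. In the heart they have been studied in development, in growth of the muscle and after infarction.

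An array reports the brightness of a probe, which depends on the probe as well as on the RNA. Levels are therefore compared between mice and not between intervals. Values are log2 levels, in which a difference of 1 is a 2-fold change, and log2 fold changes are MI minus sham with their standard error (SE). A feature was called when the fold change was over 2 and the adjusted p from limma, with Benjamini-Hochberg correction over all 25707 features tested, was under 0.05. In whole ventricle, more cells of a type and more RNA per cell cannot be told apart. Every array came from 1 slide and 1 scan, with 2 MI and 2 sham arrays in each of its 2 rows. On the 8 arrays, 58.6 to 66.4% of probes were well above background. Cardiomyocyte markers were all 8 detected, with a mean log2 level of 15.98 to 16.68 in MI and 16.20 to 16.85 in sham-operated mice, and none was called.

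The results below turn on a small number of intervals, and 1 of the called ones holds a microRNA host. Mir17hg is the primary transcript of the miR-17 cluster, which is processed into 6 microRNAs with known roles in cell growth. Their mature sequences are shown because they are the product for which this interval is known. They were not measured: the array read the host interval. They are RefSeq sequences (GRCm38.p6, plus strand, chr14:115043684-115044496, a build other than that of the intervals), 5′ to 3′, with the seed (bases 2 to 8) in capitals.
mmu-miR-17-5p: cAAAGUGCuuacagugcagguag
mmu-miR-20a-5p: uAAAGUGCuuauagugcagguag
mmu-miR-18a-5p: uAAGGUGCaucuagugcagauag
mmu-miR-19a-3p: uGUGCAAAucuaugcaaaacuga
mmu-miR-19b-3p: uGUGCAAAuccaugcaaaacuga
mmu-miR-92a-3p: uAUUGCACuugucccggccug
The 6 microRNAs hold 4 different seeds, since miR-17 shares its seed with miR-20a, and miR-19a shares its seed with miR-19b. Probe sequences and the mm9 sequence of the intervals were not used here.

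A small share of interval strands passed the test. More were called higher than lower under every scaling, but at any fold size which direction prevailed depended on the scaling of the arrays. Of 3389 interval strands, 33 (0.974%) were called higher in MI mice, where the share over all features was 3.16%, and 6 (0.177%) were called lower, where the share over all features was 0.408%. At any fold size, 88 interval strands rose at an adjusted p under 0.05 (6.71% of all features did) and 21 fell (1.45% of all features did). When arrays were scaled to their 75th percentile, 144 interval strands rose and 129 fell at any fold. The counts were 138 and 157 after quantile normalization, and 125 and 148 after normexp background correction with quantile normalization. Rises thus did not outnumber falls under the last 2. Shares over all features under these scalings are not given here, so the change cannot be read as particular to intervals. RefSeq messenger RNAs were called in 4.58% of 15577 features, RefSeq non-coding RNAs in 5.26% of 361, Ensembl transcripts in 2.37% of 2113, and interval strands in 1.15%, beside 3.57% of all features. The probes on intervals were dimmer: the median processed intensity over arrays was 55.2 for kept interval probes and 342.5 for the other kept probes. The part of this difference in brightness in the lower share of calls was not tested.

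The bulk of the interval strands lay slightly above 0. Their median log2 fold change was 0.16, beside 0.12 over all features, and 79.0% of them had a positive value, against 65.0% of all features. This shift depends on the scaling: after quantile normalization the median of the intervals was -0.02 and that of all features -0.04. The 5th percentile of the interval strands was -0.27 and the 95th percentile 0.57.

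**Figure D1:**
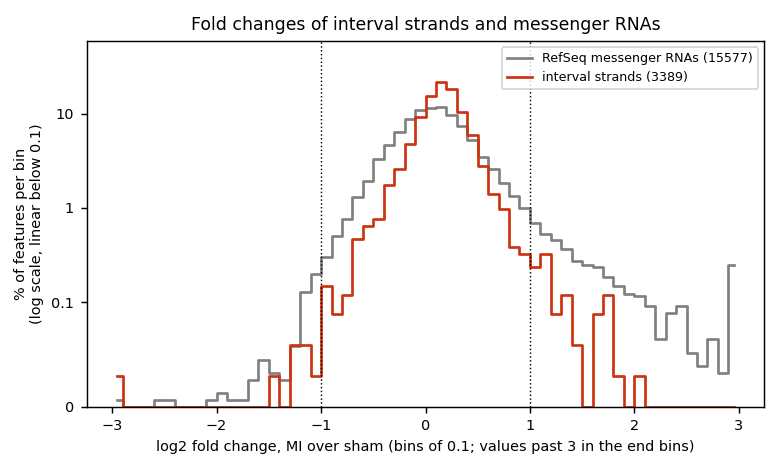
Share of features (%, log scale, linear below 0.1) in each bin of 0.1 of the log2 fold change, MI over sham, for 3389 interval strands (red) and 15577 RefSeq messenger RNAs (grey), with 2-fold marked by dotted lines. The interval strands form the narrower distribution, with medians of 0.16 and 0.09, and fewer of them lie past 2-fold.

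The filter kept some probes that were seen on more MI than sham arrays. Of the 7462 kept probes, 6044 were well above background on as many MI as sham arrays, 1205 on more MI arrays and 213 on more sham arrays. Over all probes of the array, 61.4 to 66.4% were well above background in MI and 58.6 to 65.8% in sham-operated mice. The same split was not counted for the other probes, so it cannot be read as particular to intervals. There were 25 kept probes seen on no sham array and 3 seen on no MI array. All 39 called interval strands were well above background on all 4 MI arrays, and 7 of them on fewer than 4 sham arrays. In 8 called interval strands, 13 kept probes in all were not well above background on any sham array. In 19 called interval strands, all higher in MI, at least 1 kept probe had a value on a sham array that was not well above background. A floor fold, added after the values were seen, was computed with each such value set to the dimmest signal that passed on its array, where it lay below it. It is not a strict lower limit, since a value that did not pass can lie above that signal and was then left unchanged. This was so in 16b-R (described below), which stayed at 2.23-fold. By the floor fold 13 of the 19 were over 2-fold and 6 were at 1.57 to 1.84-fold. The floor fold holds only for the scaling used here, and other scalings gave smaller folds for some of them. The 6 were 2b-R, 5a-F, 8c-R and 12c-F, described below, chr5:91480533-91502237 (5d-R) and chr4:46583780-46614788 (4c-R), the last 2 named after their values were seen.

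The largest changes are given with a short label: the chromosome, a letter for the interval in order of position, and the strand. The 39 called interval strands fell on 16 of the 20 chromosomes that had any, and in 31 of 1768 loci, a locus being a run of overlapping kept intervals. In 35 of the 39, the values of MI and sham-operated mice did not overlap. Over all features, 8.73% had no overlap with MI higher and 2.75% with MI lower, and over interval strands these shares were 5.72% and 1.45%.

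The largest log2 fold change as scaled here was on chromosome 3, where 4 overlapping interval strands were all called. With the 75th percentile, quantile normalization or the spike-in shift alone, 13a-F and 19c-R (below) had larger values than 3a-F, at 2.62 and 2.58 against 1.99 with the 75th percentile. The interval chr3:137734560-137740335, strand F (3a-F), had log2 levels of 9.97, 9.62, 10.12 and 9.94 in MI mice and of 7.90, 7.65, 8.14 and 7.74 in sham-operated mice. All MI mice lay above all sham-operated mice by more than the range of either group. The difference was 4.16-fold (log2 fold change 2.06, SE 0.20, limma adjusted p = 4.7e-08), and its 2 kept probes gave 2.04 and 2.07. The wider interval chr3:137736327-137752677 (3b) rose on both strands. On F its levels were 11.71, 11.81, 11.92 and 11.99 in MI mice and 9.82, 9.86, 10.43 and 9.75 in sham-operated mice, a 3.71-fold rise. On R they were 5.88, 5.59, 6.01 and 5.30 against 4.74, 4.72, 3.83 and 4.51, a fitted rise of 2.37-fold. None of the 3 kept probes of 3b-R was well above background on all 8 arrays, and the floor fold was 2.03. The short interval chr3:137742666-137744470 (3c-F), which lies within 3b, rose 3.39-fold. The F-strand intervals of this locus and 3b-R thus moved in the same direction, and sham replicate 3 was the highest sham value on 3b-F and the lowest on 3b-R. The strand difference in 3b did not rank among the 11 that passed the test described below.

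Intervals on chromosomes 8 and 2 also rose. The interval chr8:80581177-80621652 (8b-F) had levels of 6.34, 7.24, 6.84 and 6.61 in MI mice and 5.25, 5.10, 4.55 and 5.01 in sham-operated mice, a 3.44-fold rise. It rests on 1 kept probe of 2, well above background on 3 of 4 sham arrays. The interval chr2:128211990-128215223 (2a-R) had levels of 6.98, 7.33, 7.52 and 7.25 against 5.63, 5.64, 5.42 and 5.63, a rise of 3.22-fold in which the sham-operated mice spanned a narrow range. Its 3 probes gave log2 fold changes of 1.65 to 1.73, and 1 of them was on no sham array. The floor fold was 3.19 as scaled here, and with normexp the log2 fold change was 0.88. A neighbour that does not overlap it, chr2:128217275-128217972 (2b-R, named after its values were seen), was called at a log2 fold change of 1.03, with levels of 6.09 to 6.59 in MI and 4.89 to 5.55 in sham-operated mice.

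**Figure D2:**
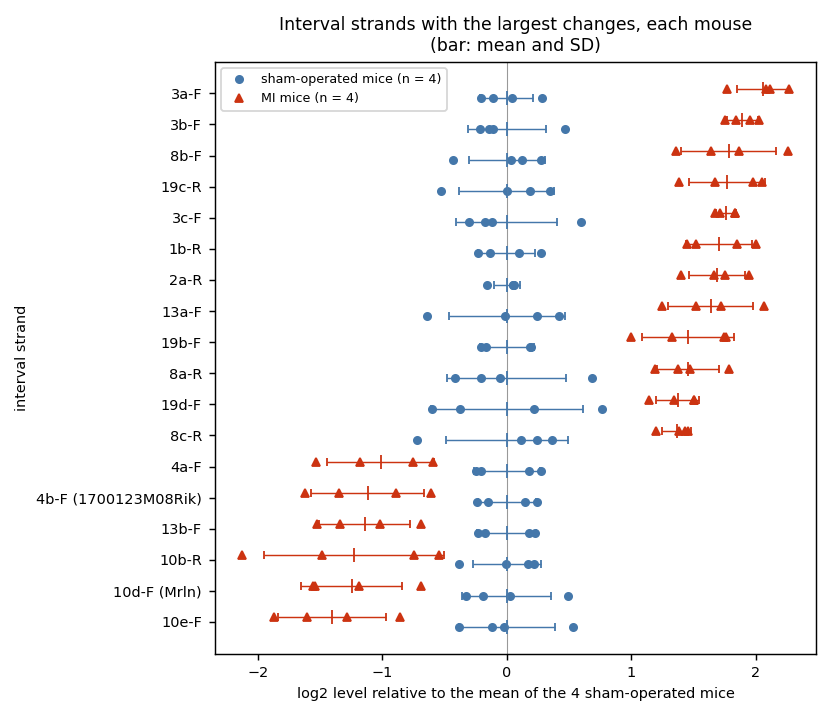
Log2 level of each mouse relative to the mean of the 4 sham-operated mice, for the 12 interval strands with the largest rise and the 6 called lower, among called interval strands whose groups did not overlap. Triangles are MI mice, circles sham-operated mice, bars the mean and SD, and in each row the triangles lie wholly to 1 side of the circles.

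On chromosome 19, 2 overlapping interval strands of opposite strand rose. The interval chr19:53517903-53540753, strand R (19c-R), had levels of 5.83, 6.42, 6.50 and 6.12 in MI mice and 4.79, 4.64, 3.92 and 4.45 in sham-operated mice, a 3.40-fold difference (limma adjusted p = 2.8e-06). Its 9 kept probes gave log2 fold changes from 1.43 to 2.12, every one past 2-fold. Of these, 3 were on no sham array and 7 on fewer than 4 sham arrays, and the floor fold was 2.75. Within it lies chr19:53535104-53536627 (19d-F), with levels of 5.73 to 6.09 in MI and 3.99 to 5.35 in sham-operated mice, well above background on 2 of 4 sham arrays, and a lower limit of 2.29-fold.

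On chromosome 1, an interval and a shorter one at its end rose together on the same strand. The short interval chr1:183832694-183834125 (1b-R) had levels of 10.59, 10.98, 11.14 and 10.66 in MI mice and 9.24, 8.998, 9.41 and 8.90 in sham-operated mice, a 3.26-fold rise with 3 probes between 1.70 and 1.71. The wider chr1:183783306-183834531 (1a) rose by 1.18 on F (9 kept probes, 0.88 to 1.45) and by 1.19 on R (3 kept probes, 1.06 to 1.28). In 1a-F the MI mice lay between 6.10 and 6.83 and the sham-operated mice between 4.87 and 5.52. In 1a-R they lay between 7.82 and 8.62 and between 6.63 and 7.48. Intervals 1a and 3b were the 2 of 709 with both strands called.

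Of the remaining interval strands named for size, chr13:15947521-15999246 (13a-F) had levels of 5.64, 6.45, 5.91 and 6.11 in MI mice and 4.63, 4.81, 3.75 and 4.38 in sham-operated mice. Its fitted rise was 3.11-fold, but 3 of its 4 kept probes were on no sham array. Those probes gave 1.82 to 2.16, and the probe seen on all arrays gave 0.68. The floor fold was 2.27 as scaled here. The log2 fold change of 13a-F was 0.61 with normexp and 0.68 with the authors' values. The interval chr19:46419916-46421753 (19b-F) rose by 1.46 with levels of 5.60 to 6.37 in MI and 4.41 to 4.80 in sham-operated mice. Of its 2 probes, 1 was on no sham array. The floor fold was 2.53 as scaled here, and with normexp the log2 fold change was 0.53. The interval chr8:71495043-71525582 (8a-R) rose by 1.46 on 1 probe, with levels of 6.30 to 6.89 against 4.69 to 5.79. The interval chr8:124355710-124401160 (8c-R) rose by 1.36 in the fit, with levels of 5.48 to 5.73 against 3.56 to 4.65. Here 2 of 3 kept probes were on no sham array, and the floor fold was 1.84.

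Of the 6 called falls, 4 lay in 2 loci. The median log2 fold change was -1.18 over these 6 and 1.24 over the 33 called rises, and after normexp with quantile normalization the same interval strands had medians of -1.11 and 0.67. On chromosome 10 the interval chr10:69669025-69686275, strand F (10d-F), holds Mrln, listed by the study as 2310015B20Rik. RefSeq types it as protein coding, and its product, myoregulin, is a small membrane peptide of skeletal muscle that inhibits the calcium pump of the sarcoplasmic reticulum. The levels of 10d-F were 7.37, 6.999, 7.01 and 7.87 in MI mice and 8.59, 9.05, 8.23 and 8.37 in sham-operated mice. All MI mice were lower, by 2.37-fold on average (log2 fold change -1.25, SE 0.23, limma adjusted p = 0.00053), and the 5 probes gave -1.41 to -0.89. The shorter chr10:69679644-69682458 (10e-F) within it fell by 1.40 on the log2 scale, with levels of 6.90 to 7.91 against 8.38 to 9.30.

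On chromosome 4 the interval chr4:11899775-11931875 (4b-F) holds the lncRNA gene 1700123M08Rik. Its levels were 8.15, 7.43, 7.69 and 8.44 in MI mice and 8.81, 9.29, 9.19 and 8.89 in sham-operated mice, a difference of -1.12 (SE 0.23, limma adjusted p = 0.0015). The overlapping chr4:11893711-11921443 (4a-F) gave -1.01, with 3 probes between -1.03 and -0.99. In both, no MI mouse reached the lowest sham-operated mouse. The call of 4a-F lies at the 2-fold line and was lost in 4 of the 8 fits that left out 1 mouse. The other falls were chr10:39666719-39679959 (10b-R), at -1.23 with levels of 7.65 to 9.23 against 9.39 to 10.002, and chr13:113555055-113564665 (13b-F), at -1.14 with levels of 5.55 to 6.39 against 6.85 to 7.30. MI replicate 2 was the lowest mouse in 10b-R, and without it 3 interval strands, not 6, were called lower.

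For a single interval strand, the exact two-sided permutation test of 4 against 4 mice cannot go below p = 0.0286. Groups of 4 that do not overlap always give that value, so the test adds nothing to the 35 called interval strands without overlap. Of the 39, 20 were over 2-fold in both rows of the slide, a description, since the same mice chose them. Leaving out 1 mouse at a time, 26 of the 39 were called in all 8 fits. Sham replicate 3 was the lowest sham-operated mouse in 20 of the 39, and without it 26 interval strands were called higher in place of 33. Its array had the smallest additive constant of the authors' normalization, 3.16 against 4.74 (MI replicate 3) to 19.6 on the others. The part of this constant in these counts was not tested.

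Probes of 1 interval strand share the interval but not their sequence, and are repeated readings of it, not replicates. Of 1946 interval strands with at least 2 kept probes, 1286 (66.1%) had all probes in 1 direction, and the median range of the probes' log2 fold changes was 0.24. With 2 kept probes 73.2% had 1 direction, with 3 kept probes 69.3%, and with 5 kept probes 57.8%. Over 8317 pairs of probes from 1 interval strand, the log2 fold changes had a Pearson r of 0.62, a description of pairs that share arrays. All 108 kept probes of the 39 called interval strands moved in the direction called, as the choice of high values favours. In 15 of the 29 called interval strands with at least 2 kept probes, every probe was past 2-fold, and 10 rested on 1 kept probe, 3 of which were the only probe designed.

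**Figure D3:**
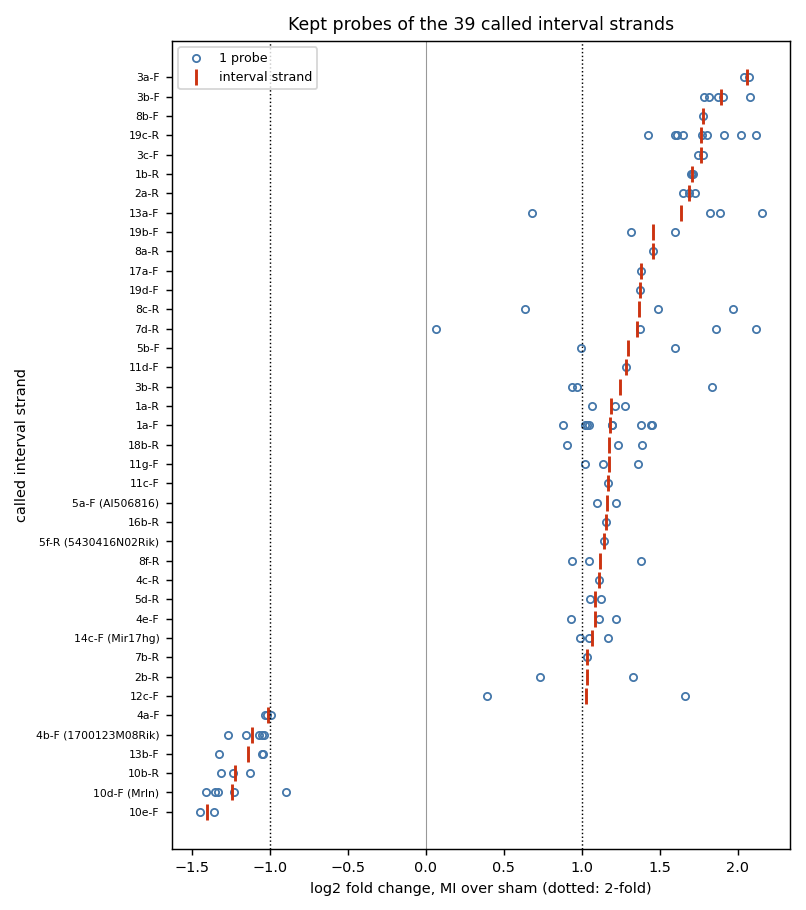
Log2 fold change, MI over sham, of each kept probe (open circles) and of the interval strand (red bars) for the 39 called interval strands, with 2-fold marked by dotted lines. In called interval strands with at least 2 kept probes the median range was 0.29, and the widest spreads are in 7d-R, 13a-F and 8c-R.

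The 3 called interval strands whose probes differed most were 7d-R, 13a-F and 8c-R. In chr7:119735208-119822808 (7d-R) the MI mice were at 9.92, 10.14, 10.76 and 9.10 and the sham-operated mice at 8.85, 8.34, 8.73 and 8.59. The 4 kept probes gave 2.12, 1.86, 1.38 and 0.07, so that 1 probe, well above background on all 8 arrays, lay near 0 beside 3 past 2-fold. A short interval on the same strand within it, named after its values were seen, chr7:119809687-119811410, gave -0.20 (limma adjusted p = 0.66). In 8c-R the probes gave 1.97, 1.49 and 0.64, and the probe with the lowest value was the 1 seen on all arrays.

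Intervals with many kept probes let the spread along an interval be read in mice of both groups. The interval with the most kept probes, chr16:43623581-43642715 (16a), had all 20, 10 on each strand. Strand F gave -0.37 (probes -0.58 to -0.07, limma adjusted p = 0.40) and strand R -0.10 (adjusted p = 0.85), and the groups overlapped on both. MI replicate 2 was the lowest mouse on both strands, at 8.91 on F against 9.78 to 9.90 in the other MI mice. The interval chr7:99879368-99889978 (7a), with 18 kept probes, gave 0.04 on F and 0.01 on R, and the sign on both strands changed with the scaling. The third, chr5:74487385-74497428 (5c), is described next.

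The study's own list of lncRNAs held 10 of the interval strands. The study tested single probes matched to lncRNAs, and all 10 passed its thresholds for fold and q-value. Here all kept probes of an interval strand were averaged, so the counts below are of another unit than the study's. That list was chosen on these mice, so its counts are not independent evidence of direction: 5 were called, 3 higher and 2 lower (Mrln and 1700123M08Rik, above), and at an adjusted p under 0.05 another 2 rose and 1 fell by less than 2-fold. With F read as the plus and R as the minus strand, the interval strand matched RefSeq in 7 of the 8 genes with a known strand there. The labels do not state this reading. The exception was AI506816, on the minus strand in RefSeq and measured on F.

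Mir17hg, the host of the microRNAs printed above, lies on chr14:115443612-115445950 (14c-F). Its levels were 8.11, 8.12, 8.56 and 7.82 in MI mice and 7.03, 6.91, 7.37 and 7.03 in sham-operated mice. All MI mice were higher, by 2.10-fold (log2 fold change 1.07, SE 0.21, limma adjusted p = 0.0011), and the 3 probes gave 0.99 to 1.17. The value lies close to the 2-fold line: it was 0.93 without MI replicate 3, 0.98 after quantile normalization, 0.95 with the median of probes, 0.68 with normexp and 0.54 in the vsn refit, none of them called. The wider interval around it on the same strand, chr14:115423660-115463160, named after its values were seen, gave 0.11 (SE 0.19), with its 5 kept probes between -0.15 and 0.65. The rise was therefore measured on the probes of the short interval.

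The gene 5430416N02Rik, also known as Adapt33, is an RNA first found in cells adapting to oxidant stress. On chr5:100849748-100858532 (5f-R) its levels were 6.69, 6.64, 6.87 and 6.56 in MI mice and 5.49, 5.59, 5.51 and 5.60 in sham-operated mice. The groups were well apart, with an SD of 0.13 in MI and 0.06 in sham-operated mice, and the rise was 2.20-fold on 1 kept probe. The wider chr5:100845342-100869667 on the same strand, named after its values were seen, gave 0.48 with 6 kept probes from 0.28 to 0.81. The gene AI506816, on chr5:23195569-23218551 (5a-F), had levels of 6.18, 5.47, 5.95 and 5.45 against 5.06, 4.84, 4.03 and 4.48. Its fitted log2 fold change was 1.16, but 1 of its 2 probes was on no sham array and the floor fold was 1.84. The R strand of this interval (named after its values were seen), which is the strand of the gene in RefSeq if R is the minus strand, gave 0.92 (limma adjusted p = 0.0031).

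Among the rest of the list, Snhg17, a host of small nucleolar RNAs listed as 9430008C03Rik, rose by 0.86 on chr2:158169020-158191295 (2d-R; limma adjusted p = 0.0054). Its levels were 7.58, 7.42, 7.79 and 7.23 in MI mice and 6.76, 6.68, 6.54 and 6.60 in sham-operated mice, with no overlap. The 8 kept probes ranged from 0.05 to 1.55, so that probes past 2-fold and probes near 0 lay in the same interval. Dancr, a lncRNA known to hold back differentiation of progenitor cells and listed as 2700023E23Rik, rose by 0.66 on 5c-F (adjusted p = 0.040). Its levels were 9.99, 9.56, 10.005 and 9.59 against 9.21, 9.05, 9.13 and 9.12. Of its 10 kept probes, 8 gave 0.45 to 1.08 and 2 gave -0.26 and -0.46. The R strand of the same interval gave 0.24 (adjusted p = 0.54).

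Neat1, the RNA scaffold of nuclear paraspeckles, on chr19:5771425-5848475 (19a-F), did not pass as the average of its 10 kept probes. Its levels were 9.78, 8.88, 9.69 and 8.85 in MI mice and 9.03, 7.92, 8.54 and 8.88 in sham-operated mice, and the log2 fold change was 0.70 (SE 0.26, limma adjusted p = 0.093). All 10 kept probes were positive, from 0.18 to 1.29. The gene 2810403D21Rik, on chrX:106029816-106082235 (Xa-F), had an adjusted p of 0.0050 and fell by 0.94, just under 2-fold, with levels of 7.09 to 8.11 against 8.44 to 8.61. Eldr, listed as 2810442I21Rik, on chr11:16831925-16851121 (11a-R), gave 0.14 (SE 0.47). Its MI mice were at 6.28, 9.60, 5.74 and 6.19 and its sham-operated mice at 6.73, 6.98, 6.82 and 6.72, so that MI replicate 2 stood above all mice and the other 3 below all sham-operated mice. Its 2 kept probes gave 1.31 and -1.03, and the first value came from MI replicate 2, at 12.89 on that probe. There the other MI mice were at 5.02 to 5.75, below all sham-operated mice at 5.86 to 6.25. Without MI replicate 2 the value of 11a-R was -0.74. The study listed it as lower in MI.

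For 709 intervals both strands were kept, 298 had 1 strand kept and 60 had none. Whether the fold change differed between strands was tested in each interval on the difference of the F and R log2 levels of each array, with correction over the 709. The difference passed in 11 intervals (1.55% of the 709 tested), 2 with F above R and 9 with R above F, and 103 had an unadjusted p under 0.05. This count rests on single mice: it was 6 without MI replicate 1, 1 without MI replicate 2 or MI replicate 3, 3 without sham replicate 1, and 2 without sham replicate 2 or sham replicate 4. Over the 709, the log2 fold changes of the strands had the same sign in 72.8%, with a Pearson r of 0.20, while 873 overlapping pairs on 1 strand had the same sign in 71.8% and an r of 0.43. These are descriptions of pairs that share mice and arrays.

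**Figure D4:**
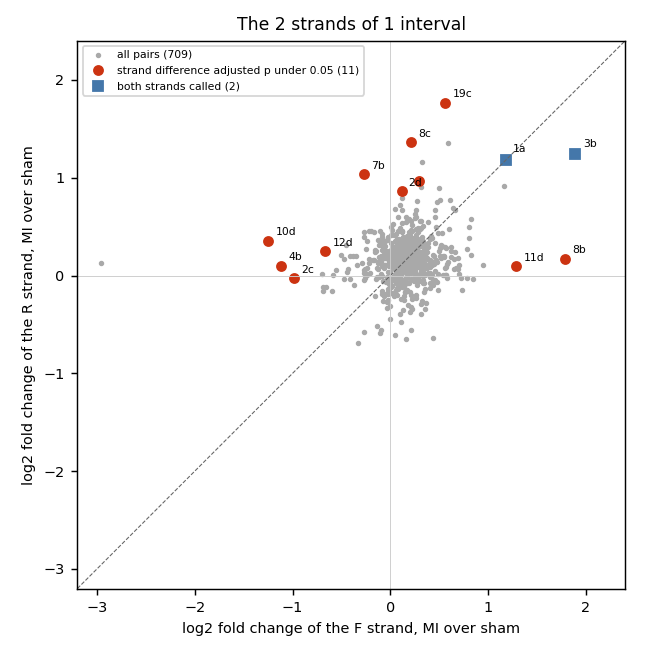
Log2 fold change, MI over sham, of strand R against strand F for 709 intervals with both strands kept. Red points are the 11 intervals whose strand difference had an adjusted p under 0.05, blue squares the 2 with both strands called, and the dashed line marks equal values.

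The smallest p was in chr7:111526943-111545093 (7b), at an adjusted p of 0.011 by limma. Strand R had levels of 8.29, 8.07, 8.47 and 8.16 in MI mice and 7.53, 6.94, 7.27 and 7.12 in sham-operated mice, a rise of 1.03 on 1 probe. Strand F had levels of 8.23 to 9.16 in MI and 8.72 to 9.40 in sham-operated mice, overlapping, with a difference of -0.27. The call of R was lost without MI replicate 3 (0.96) and without sham replicate 2 (0.94), and with the 75th percentile (0.97) and quantile normalization (0.93). With the median of probes, F was at 0.40. The interval chr8:124355710-124401160 (8c) came next, with R at 1.36 (above) and F at 0.21, the 5 probes of F lying between 0.06 and 0.32 (limma adjusted p of the strand difference 0.017). This difference rests on an R value in which 2 of 3 kept probes were on no sham array, so that they passed the filter through MI mice only. The remaining probe gave 0.64.

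The other intervals with the smallest p each had 1 strand with the larger change. In chr11:70196232-70203307 (11d), F had levels of 11.69, 11.18, 12.06 and 11.45 in MI mice and 10.59, 9.69, 10.62 and 10.34 in sham-operated mice, a rise of 1.29. Its R strand gave 0.09, with 5.28 to 5.72 in MI and 5.20 to 5.67 in sham-operated mice. In chr2:132079092-132087069 (2c), F had levels of 5.96, 5.24, 5.76 and 6.13 against 6.72, 6.82, 6.70 and 6.76, a fall of -0.98 that missed 2-fold, and R gave -0.03. In chr12:4133875-4243375 (12d), F gave -0.66 (limma adjusted p = 0.0501) and R 0.25, so that the difference between strands passed where neither strand did. Each of these 3 rests on 1 kept probe a strand. The strand difference also passed in 19c, 4b, 10d and 8b, and in 2d, all described above, with R of 10d (Mrln) at 0.36 and R of 4b at 0.10. The last of the 11, chr17:56687541-56694631, named after its values were seen, had R at 0.97 and F at 0.29.

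A called interval strand was often overlapped on its own strand by one that was not. This held for 14 of the 39, in 14 overlaps, of which 12 had the same direction and 3 an adjusted p under 0.05 in the uncalled member. The opposite directions were in 7d-R (above) and in 10d-F, where chr10:69667411-69678033, named after its values were seen, gave 0.19 on 1 probe beside -1.25. The 39 called interval strands are thus not 39 separate transcripts: 13 of them lay in 5 loci.

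Of the 12 called interval strands outside the rule for named intervals, 2b-R, 4c-R and 5d-R are named above. The other 9, of which those named here were chosen after their values were seen, had log2 fold changes from 1.03 to 1.38. In 4 of them the groups overlapped. In chr17:8718223-8949898 (17a-F) the MI mice were at 10.56, 9.10, 11.01 and 9.28 and the sham-operated mice at 9.23, 7.85, 8.95 and 8.41. In chr16:91174611-91200786 (16b-R) they were at 5.41, 5.08, 7.07 and 6.52 against 5.07, 5.35, 4.32 and 4.72, and the difference was 0.03 in the first slide row and 2.28 in the second. In chr12:3199327-3200827 (12c-F) they were at 5.43, 4.81, 5.24 and 6.69 against 4.96, 4.74, 3.70 and 4.66. In chr4:149445201-149445902 (4e-F) they were at 9.03, 6.90, 8.53 and 7.28 against 7.70, 6.43, 6.59 and 6.66. In each of these intervals 1 or more MI mice lay within the range of the sham-operated mice.

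The number of calls and their split by direction both depended on the scaling. With the 75th percentile, 43 were called higher and 20 lower (68.3% of calls higher, against 84.6% as reported). With quantile normalization 37 and 27 were called (57.8% higher). Over all features, 813 were called higher and 105 lower as reported. Counts over all features under the other scalings are not given here. The split and its change with the scaling therefore cannot be read as particular to intervals. Fewer were called after normexp with quantile normalization (7 and 5) and after a refit of the vsn likelihood to the spike-ins (6 and 0). At any fold, normexp gave more than the 88 rises and 21 falls as reported, at 125 and 148. The refit gave 25 and 7. Constants in that refit were 166.2 to 256.7 in units of processed signal, above the median intensity of 55.2 of the kept interval probes, against 3.16 to 19.6 in the authors' values. On that scale the median log2 fold change of the 33 higher interval strands was 0.32, against 1.24 as reported. The part of the constants in the number of calls was not tested.

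**Figure D5:**
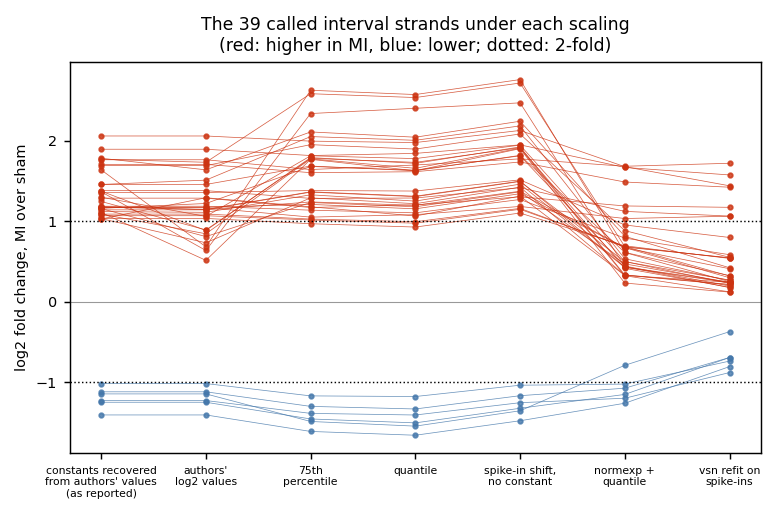
Log2 fold change, MI over sham, of the 39 called interval strands (1 line each, red higher, blue lower) under 7 scalings of the same arrays, with 2-fold marked by dotted lines. Of these interval strands, chosen past 2-fold, 39 lie past 2-fold as reported, 38 with the 75th percentile, 12 with normexp and 7 with the vsn refit.

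Some markers of leukocytes moved in the same samples. Of 8 neutrophil markers, 7 were tested and 6 were called higher, with a median log2 fold change of 2.82. Csf3r was at 0.08, and Ly6g was not tested. The list's mean log2 level was 11.68 to 12.77 in MI and 9.52 to 9.82 in sham-operated mice. Of 8 monocyte and macrophage markers, 6 were tested and 2 were called higher, Ccr2 at 1.15 and Cd14 at 2.25. Adgre1 was at -0.16, Lyz2 at 0.15, Csf1r at 0.19 and Mrc1 at 0.20, and the list median was 0.19. Cd68 and Ly6c2 were not tested. The list mean was 9.93 to 10.54 in MI against 9.37 to 9.91 in sham-operated mice. None of the 6 fibroblast, 5 endothelial and 4 T and B cell markers tested was called. The part of these cells in the interval results was not tested.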

How the data were processed

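Per the labels, total RNA from 8 mouse ventricles (4 MI, 4 sham) was labelled with Cy3 and hybridised to 1 array each. The deposited scanner files hold the processed intensity of each spot (Feature Extraction 11.0.1.1, mm9), and the deposited table holds the authors' log2 values after spike-in normalization with vsn, spots not above background set to missing. Each array's scale and additive constant were recovered from these log2 values and applied to the processed intensity of all spots. Outlier spots were left out, spots of 1 probe and probes of 1 feature averaged, and features with a probe well above background on 4 or more arrays tested (25707, of 34038 kept probes). limma 3.58.1 (R 4.3.3) compared MI with sham without covariates, in place of the authors' significance analysis of microarrays. Of 200 changes of 4-fold simulated among 25604 features for MI against sham, 98.0% were recovered. Recovery of changes under 4-fold was not tested. Precision is limited by the number of arrays. P-values measure the spread between mice of 1 operation each.

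The members and gene lists were chosen with earlier results of these data known. Interval strands were named by rule: in each direction up to 12 with the largest fold among called ones without overlap, those of the study's lncRNA list, those called on both strands, the 5 smallest p of the strand difference, the 3 intervals with the most kept probes, and the 3 called with the widest probe spread. Alternatives covered 6 scalings, the detection filter, the summary of probes, the test, blocks for replicate number and slide row, and each mouse left out. Gene names were matched to RefSeq symbols, all 10 of the study's list.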

Additional observations from a re-analysis of the deposited data

Results flagged for a closer look

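In a group of 4 mice, 1 value far from the other 3 was found for 5 of the named interval strands, by the share of the range that its gap takes. Chance gives this in about 1 of 20 groups, and 44 interval strands in 2 groups were looked at. In 11a-R (Eldr), MI replicate 2 was at 9.60 and the other MI mice at 5.74 to 6.28. In 16a-F, MI replicate 2 was at 8.91 and the others at 9.78 to 9.90. In 2a-R, sham replicate 3 was at 5.42 and the others at 5.63 to 5.64. In 3b-F, sham replicate 3 was at 10.43 and the others at 9.75 to 9.86. In Xa-F (2810403D21Rik), sham replicate 1 was at 8.61 and the others at 8.44 to 8.46.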

How the results depend on the processing

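As reported, 33 interval strands were called higher and 6 lower, 88 rose and 21 fell at any fold, 11 strand pairs passed, and the median log2 fold change was 0.16. Counts that moved by over 1.5 times were as follows. With the 75th percentile, 20 were called lower, and 144 rose and 129 fell at any fold. With the vsn refit, 6 were called higher and 0 lower, 25 rose and 7 fell, and 24 strand pairs passed. In that limma fit 0 were past 2-fold and lower at an unadjusted p under 0.05 too, and 47 were lower at any fold. With the spike-in shift alone, 58 were called higher and 17 lower. With quantile normalization, 27 were called lower, 138 rose and 157 fell, and the median was -0.019. With normexp, 7 were called higher, 148 fell, 38 strand pairs passed, and the median was -0.0025. Without the detection filter, 3 were called lower, 27 rose, 4 fell and 0 strand pairs passed by limma, of which 69 had an unadjusted p under 0.05. With the brightest probe, 10 were called lower and 25 strand pairs passed. Single probes gave 120 called higher and 27 lower, with 268 rises and 65 falls. Significance analysis of microarrays gave 170 rises and 37 falls. The unmoderated t-test gave 13 called higher and 0 lower, 26 rises, 0 falls and 2 strand pairs, and at an unadjusted p under 0.05 it had 6 past 2-fold and lower and 61 lower at any fold. The replicate block gave 203 rises, 36 falls and 5 strand pairs, with 31 called higher and 6 lower. Replicate numbers were not taken to pair mice: the correlations of same-numbered mice were 0.25, 0.28, 0.14 and 0.01, and 2 of 4 numbers gave the highest correlation for both mice. The cause of these changes was not tested.

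Leaving out 1 mouse gave 26 to 45 called higher, 3 (without MI replicate 2) to 10 (without MI replicate 1) called lower, 63 to 131 rises, 12 (without sham replicate 3) to 25 falls, 1 to 11 strand pairs, and a median of 0.10 to 0.24.

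Values that changed sign were small or uncalled. For 7a-R they were -0.13 (75th percentile), -0.011 (vsn refit), -0.19 (quantile), -0.082 (normexp), -0.020 (the authors' values), -0.072 (all 8 arrays), -0.17 (median of probes) and -0.14 (brightest probe), and -0.048 to 0.071 without 1 mouse. For 7a-F they were -0.18 (75th percentile), -0.045 (spike-in shift), -0.24 (quantile) and -0.075 (normexp), and -0.105 to 0.196 without 1 mouse. For 11a-R they were -0.067 (75th percentile), -0.14 (quantile) and -1.03 (brightest probe), and -0.74 (without MI replicate 2) to 0.54 without 1 mouse. For 11d-R they were -0.069 (75th percentile) and -0.12 (quantile), and for 8c-F -0.0094 (quantile) and -0.0049 (normexp). For 5c they were -0.46 on F and -0.032 on R (brightest probe), and for 7b-F 0.40 (median of probes). For 2c-R the value was 0.16 without the filter and -0.071 to 0.016 without 1 mouse, and for 16a-R -0.25 to 0.051 without 1 mouse.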

Other observations

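Past 2-fold but not called were 5 interval strands, each with 1 mouse far from the rest, and all named after their values were seen. On chr13:5506700-5519000, strand F, sham replicate 4 was at 17.51 and the other mice between 4.29 and 5.25 on 1 kept probe, which gave a log2 fold change of -2.96. On chrX:92139043-92140820, strand R, MI replicate 2 was at 12.39 and the rest between 5.81 and 6.67. On chr6:53808521-53817132, strand F, and chr6:3333825-3349525, strand R, MI replicate 3 was at 9.44 and 8.47, and the other mice were at no more than 6.52 and 5.69. On chr9:43926204-43928496, strand F, MI replicate 4 was at 7.68 and the rest at no more than 5.36.

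A further 13 probes on 3 intervals are named by coordinates without a strand and were not among the members. Of these, 6 passed the filter on background. The 5 probes of chr17:12941161-12944859 passed on all 8 arrays and gave log2 fold changes from 0.35 to 0.43, none with an adjusted p under 0.05 by limma over single probes (lowest 0.36).

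Kept intervals were longer than those kept on no strand, with a median of 9424 bases over 2680 intervals against 2056 bases over 860.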
